A study of Rattus norvegicus with 17 samples.

Results

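Genes of the hypoxia response and of glycolysis were examined in cultured fetal rat gubernacula as a set of 34 named members. They were chosen by symbol and fall into 12 oxygen-sensing targets and 22 genes of glucose transport and glycolysis. The probe sets were those that the platform annotation ties to a single member: 54 of the 31099 probe sets on the array, belonging to 33 of the 14218 genes it names. Pkm, which encodes pyruvate kinase, had only a probe set shared with another gene and was not analysed here. Of the 54 probe sets, 40 passed a filter on low values, and these stood for 30 genes, 11 oxygen-sensing and 19 glycolytic. Car9, a cell-surface carbonic anhydrase, Hk2, a hexokinase, and Slc16a3, a lactate exporter, lay near the floor of the scale in nearly all arrays and were not tested.

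The gubernaculum is the fetal ligament that anchors the testis, and the study asked how its gene expression responds to insulin-like 3 (Insl3), a hormone of fetal Leydig cells. All tissue came from male Long Evans rat fetuses at gestational day 17. Each replicate was a pair of bulbs pooled (2 gubernacula) and kept at the boundary of air and medium for 24 h, in medium that also held insulin, transferrin and selenium for every group, and then for a further 24 h without added hormone (control, 6 arrays), with 10 nM Insl3 (3 arrays) or with 100 nM Insl3 (6 arrays). The labels call the replicates biological without naming the animals, and the p-values cover only the spread among these cultures. A further 2 arrays at 10 nM (replicates 4 and 5) were set aside by the submitters after a principal component analysis and for a low yield of labelled cRNA, 25.66 and 33.68 µg, and are given here only as values and in 1 alternative.

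Cells sense oxygen through prolyl hydroxylases of the Egln family, which mark the alpha subunits of hypoxia-inducible factors for destruction while oxygen is present. When oxygen falls, or when other signals stabilise the factors, they bind a short core motif and raise genes for glucose uptake, glycolysis, blood vessel growth, collagen modification and removal of mitochondria. Many glycolytic steps can be run by related enzymes from separate genes, which differ in the tissues where they are most used.

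All levels are deposited GCRMA values on a log2 scale, so that a difference of 1 is a doubling. Array medians were close in the 3 groups (4.37 ± 0.02 SD in 6 controls, 4.34 ± 0.05 in 3 arrays at 10 nM and 4.35 ± 0.03 in 6 arrays at 100 nM), and the number of arrays limits the precision. Of 12 listed fibroblast and gubernaculum markers, 11 had a probe set of their own, and all 11 passed the filter on low values. Their control means ran from 4.95 ± 0.13 (SD, n = 6) for Twist2 through 9.81 ± 0.36 for Twist1 to 15.81 ± 0.06 for Col3a1. Rxfp2, the receptor for Insl3, had no probe set of its own and was not analysed here. The first axis of variation within groups carried 27.3% of it and divided control and 100 nM replicates 1, 2 and 6 from 3, 4 and 5. Of 10 tested markers of red blood cells, 7 fell at 100 nM, and their values stand beside the members below. These are bulk samples, so fewer cells of a type and less RNA per cell cannot be told apart.

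The core motif was looked for in the promoters of the members. RefSeq promoters (build GRCr8, 250 bases before to 50 after each start) were found for 30 of the 34 members, with none for Bnip3l, Ndrg1, Slc2a3 and Pgk1. The 250 bases upstream are shown for the 5 members with such an entry that, as described below, rose at 100 nM and kept that call whichever array was left out. They lie at chr10:63715294-63715543 (+ strand) for Aldoc, chr4:159267221-159267470 (− strand) for Eno2, chr17:71944683-71944932 (+ strand) for Pfkfb3, chr20:27844796-27845045 (+ strand) for P4ha1 and chr6:77411016-77411265 (− strand) for Egln3. Each is read 5′ to 3′ along its gene, and capitals mark ACGTG or GCGTG on either strand.
Aldoc: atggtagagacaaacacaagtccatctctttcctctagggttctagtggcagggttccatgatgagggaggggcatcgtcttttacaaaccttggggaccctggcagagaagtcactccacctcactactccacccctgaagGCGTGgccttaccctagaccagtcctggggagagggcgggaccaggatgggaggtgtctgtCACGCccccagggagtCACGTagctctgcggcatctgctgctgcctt
Eno2: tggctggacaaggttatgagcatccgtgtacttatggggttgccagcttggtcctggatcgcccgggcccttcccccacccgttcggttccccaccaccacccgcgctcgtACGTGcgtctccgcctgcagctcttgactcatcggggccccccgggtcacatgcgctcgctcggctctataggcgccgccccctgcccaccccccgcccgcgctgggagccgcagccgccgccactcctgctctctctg
Pfkfb3: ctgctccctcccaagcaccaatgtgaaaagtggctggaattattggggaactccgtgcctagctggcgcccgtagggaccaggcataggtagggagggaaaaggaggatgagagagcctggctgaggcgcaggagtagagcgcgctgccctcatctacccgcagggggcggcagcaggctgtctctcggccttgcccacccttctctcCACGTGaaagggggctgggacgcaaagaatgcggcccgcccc
P4ha1: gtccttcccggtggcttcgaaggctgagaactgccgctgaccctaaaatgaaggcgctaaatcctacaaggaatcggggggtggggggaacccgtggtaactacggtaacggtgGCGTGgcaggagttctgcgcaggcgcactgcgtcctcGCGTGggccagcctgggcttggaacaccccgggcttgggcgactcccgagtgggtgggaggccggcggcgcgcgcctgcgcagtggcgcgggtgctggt
Egln3: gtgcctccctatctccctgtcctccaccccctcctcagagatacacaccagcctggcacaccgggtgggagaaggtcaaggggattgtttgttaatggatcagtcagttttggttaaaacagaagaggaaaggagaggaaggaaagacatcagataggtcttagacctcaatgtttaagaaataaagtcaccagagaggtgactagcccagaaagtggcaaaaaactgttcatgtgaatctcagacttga
The Aldoc stretch holds 3 matches, of which CACGC and CACGT are read on the opposite strand. The Pfkfb3 match is CACGTG, which reads as ACGTG on both strands, and the Egln3 window holds no match. ACGTG was present in 21 of the members' 35 promoters (60.0%), against 24.9% of 9939 promoters of genes tested on the arrays and 19.3% of all 33469. It was in 7 of 9 promoters of members that rose at either dose (77.8%). It was also in 13 of 22 promoters of tested members that did not rise (59.1%). The members were chosen by name as hypoxia and glycolysis genes, so their share does not measure a response to Insl3. The looser search for either motif found 24 of 35 (68.6%), against 61.0% of promoters of tested genes, and the members' promoters had a median GC content of 63.3% against 60.7%. A match of letters is a description and not a measured binding site.

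At 100 nM Insl3, 8 of the 30 tested members rose and 1 fell (limma, Benjamini-Hochberg adjusted p under 0.05 over all 18942 tested probe sets). With any 1 array left out, the number of glycolytic genes that rose was 3 to 5 instead of 6; the calls of Slc2a3, Hk1 and Pgam1 lay close to the threshold. Among all 10666 genes tested, 8.15% rose and 3.98% fell in the same comparison, and since the members were chosen with earlier results known, their counts are a description. Of the 11 oxygen-sensing targets, Egln3 and P4ha1 rose and Bnip3l fell, and the median change was 0.13. Of the 19 glycolytic genes, Slc2a3, Hk1, Pfkfb3, Aldoc, Pgam1 and Eno2 rose and 0 fell, with 1 lower and 7 higher at an unadjusted p under 0.05 in limma, and the median change was 0.19. The median over all genes tested was 0.02. At 10 nM, Egln3 rose among the oxygen-sensing targets and 0 fell (3 higher and 0 lower at an unadjusted p under 0.05), while Slc2a1, Slc2a3, Aldoc and Eno2 rose among the glycolytic genes and 0 fell (6 higher and 0 lower). In that comparison 5.54% of all genes rose and 3.13% fell, and the medians were 0.14, 0.16 and, over all genes, 0.06. The shares of all genes given here are at adjusted p. No such share was counted for the unadjusted p, so the unadjusted counts have no background beside them. Both comparisons use the same 6 control arrays.

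**Figure D1:**
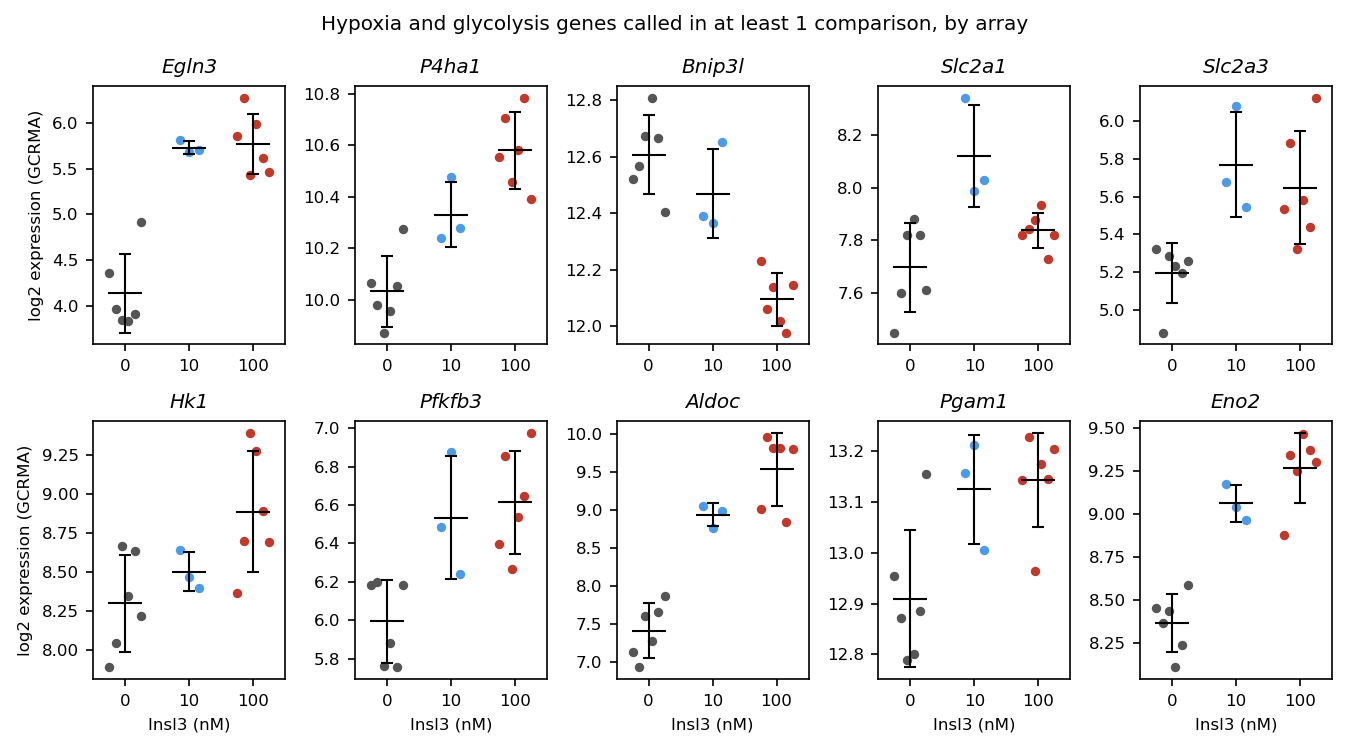
Log2 expression (vertical axis) against Insl3 dose in nM (horizontal axis) for the 10 members that passed the test in at least 1 comparison; each point is 1 array and bars show the mean and SD of 6 control, 3 10 nM and 6 100 nM arrays. Egln3, Aldoc and Eno2 lie above every control at both doses, and Bnip3l at 100 nM lies below every control.

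Egln3, an oxygen-dependent prolyl hydroxylase that is itself a target of the factors it restrains, was the oxygen-sensing gene with the largest change. Its log2 level ran from 3.83 through a median of 3.94 to 4.92 in the controls (mean 4.14 ± 0.43, SD, n = 6), was 5.81, 5.68 and 5.70 at 10 nM, and ran from 5.43 through 5.74 to 6.27 at 100 nM (5.77 ± 0.33, n = 6). Every treated array stood above every control. The change was 1.63 ± 0.19 (SE) at 100 nM, or 3.10-fold (limma, adjusted p = 0.000119), and 1.59 ± 0.23 at 10 nM, or 3.01-fold (adjusted p = 0.000873). Between the doses it differed by 0.04, with a 95% interval from -0.46 to 0.54.

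Its relative Egln1, the main oxygen sensor of most cells, did not pass the test at either dose. Egln1 had a mean of 10.07 ± 0.10 in the controls, and its change was 0.10 at 100 nM (95% interval from -0.02 to 0.23) and 0.03 at 10 nM. Hif1a, the oxygen-regulated factor itself, which is controlled mainly at the level of protein, had a change of 0.07 at 100 nM (limma adjusted p = 0.429). At 10 nM its change was 0.20 (limma adjusted p = 0.0768), and its 3 arrays there, from 12.08 to 12.17, lay above the highest control at 12.01.

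P4ha1 encodes a catalytic subunit of the prolyl hydroxylase that stabilises collagen. It ran from 9.87 through 10.02 to 10.27 in the controls (10.03 ± 0.14), was 10.24, 10.47 and 10.28 at 10 nM, and ran from 10.39 through 10.57 to 10.78 at 100 nM (10.58 ± 0.15). The 100 nM arrays did not overlap the controls, whereas 1 of the 10 nM arrays fell within their range. The change at 100 nM was 0.55 ± 0.08 (SE), or 1.46-fold (limma, adjusted p = 0.000916), and at 10 nM it was 0.30 (adjusted p = 0.0770). P4ha2, which encodes a related catalytic subunit, had a change of 0.24 at 100 nM and did not pass the test (adjusted p = 0.0789).

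Bnip3l, a receptor that directs mitochondria to autophagy and is known for clearing them from maturing red blood cells, was the only tested member that fell. It ran from 12.41 through 12.62 to 12.81 in the controls (12.61 ± 0.14), was 12.39, 12.37 and 12.65 at 10 nM, and ran from 11.98 through 12.10 to 12.23 at 100 nM (12.10 ± 0.09). All 100 nM arrays lay below all controls and all 10 nM arrays. It fell by 0.51 on the log2 scale at 100 nM (SE 0.08, limma adjusted p = 0.00081), and its change at 10 nM was -0.14 (adjusted p = 0.403). A second Bnip3l probe set had a change of -0.08 at 100 nM and did not pass (adjusted p = 0.387), so the fall rests on 1 of the 2 probe sets. Bnip3, the related mitophagy receptor, had a change of 0.13 (adjusted p = 0.598).

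The other oxygen-sensing targets did not pass the test at either dose. At 100 nM their changes, together with those of Egln1, Hif1a, P4ha2 and Bnip3, ran from -0.10 for Ndrg1, a stress-response gene, to 0.43 for Vegfa, the vascular growth factor. At 10 nM the change of Ndrg1 was 0.48 (95% interval from -0.04 to 1.01, limma adjusted p = 0.257). Ndrg1 differed by -0.58 between 100 and 10 nM (limma adjusted p = 0.341). Vegfa had a wide spread in the controls, 8.14 ± 0.73 with a lowest value of 6.90, against 8.57 ± 0.07 at 100 nM, and the 95% interval of its change ran from -0.12 to 0.98. A second Vegfa probe set lay near the floor of the scale, with a mean of 2.58 in the controls, and cannot show the direction of the gene. Ddit4, an inhibitor of growth signalling through mTOR, ranged from 10.35 to 11.52 across the controls and had changes of 0.25 at 100 nM and 0.39 at 10 nM. Higd1a, a small mitochondrial protein, had changes of 0.07 at 100 nM and 0.11 at 10 nM. A second Higd1a probe set, with a control mean of 7.51, had changes of 0.17 and 0.42. Neither passed (limma adjusted p = 0.450 at 100 nM and 0.123 at 10 nM).

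Among glucose transporters, Slc2a1 and Slc2a3, which encode GLUT1 and GLUT3, were tested. Slc2a1 ran from 7.45 through 7.72 to 7.88 in the controls, was 8.34, 7.99 and 8.03 at 10 nM, and ran from 7.73 through 7.83 to 7.93 at 100 nM. All 3 arrays at 10 nM were above both other groups, and the 100 nM arrays overlapped the controls. Its change was 0.42 ± 0.10 (SE) at 10 nM, or 1.34-fold (limma, adjusted p = 0.0151), and 0.14 at 100 nM (adjusted p = 0.305). The difference between the doses was -0.28 (95% interval from -0.50 to -0.06, adjusted p = 0.228). Without 10 nM replicate 1 the 10 nM change was 0.31 and no longer passed (adjusted p = 0.102), and it did not pass with only the 2 groups in the fit.

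Slc2a3 ran from 4.88 through 5.25 to 5.32 in the controls, was 5.68, 6.08 and 5.55 at 10 nM, and ran from 5.32 through 5.56 to 6.13 at 100 nM. The 10 nM arrays did not overlap the controls, and the lowest 100 nM array met the highest control. The change was 0.58 ± 0.17 (SE) at 10 nM (limma, adjusted p = 0.0427) and 0.45 ± 0.14 at 100 nM (adjusted p = 0.0482). The 100 nM call was lost in 13 of the 15 fits that each left out 1 array, with changes from 0.36 to 0.52 and adjusted p up to 0.101; it held only without 10 nM replicate 2 or 100 nM replicate 3. The 10 nM call was lost in 9 of 15, with changes from 0.42 to 0.69 and adjusted p up to 0.226, and held without control replicate 6 or any 100 nM replicate other than the fourth.

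In the upper part of glycolysis, Aldoc, the brain-type aldolase that splits fructose bisphosphate, had the largest change of all tested members. It ran from 6.93 through 7.44 to 7.87 in the controls (7.41 ± 0.36), was 9.05, 8.77 and 8.99 at 10 nM (8.93 ± 0.15), and ran from 8.83 through 9.80 to 9.95 at 100 nM (9.53 ± 0.48). Every treated array lay above every control, and the 2 doses overlapped. The change was 2.12 ± 0.21 (SE) at 100 nM, or 4.36-fold (limma, adjusted p = 3.17e-05), and 1.52 ± 0.26 at 10 nM, or 2.87-fold (adjusted p = 0.00206). The difference between doses was 0.60 (95% interval from 0.04 to 1.16) and did not pass over all probe sets (adjusted p = 0.358).

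Pfkfb3 makes fructose 2,6-bisphosphate, the activator of phosphofructokinase. Its log2 level ran from 5.75 through 6.03 to 6.20 in the controls, was 6.49, 6.88 and 6.24 at 10 nM, and ran from 6.27 through 6.59 to 6.98 at 100 nM. Neither dose overlapped the controls. The change was 0.62 ± 0.14 (SE) at 100 nM, or 1.54-fold (limma, adjusted p = 0.0143), and 0.54 at 10 nM (adjusted p = 0.0654). Pfkfb4, a related enzyme, had a change of 0.45 at 100 nM that did not pass (adjusted p = 0.164).

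Hk1, the hexokinase that traps glucose in most tissues, overlapped its controls. It ran from 7.89 through 8.28 to 8.66 in the controls, was 8.64, 8.46 and 8.40 at 10 nM, and ran from 8.36 through 8.79 to 9.39 at 100 nM. The change at 100 nM was 0.59 ± 0.18 (SE), or 1.50-fold (limma, adjusted p = 0.0481), and it passed in only 3 of 15 fits with 1 array left out, those without control replicate 3, control replicate 5 or 100 nM replicate 1; over all 15 the change ran from 0.49 to 0.69 and the adjusted p reached 0.103. The other Hk1 probe sets, among them the manufacturer's controls, lay near the floor of the scale and cannot bear on it. The remaining upper enzymes, Gpi, the phosphofructokinase subunits Pfkl, Pfkm and Pfkp, the muscle-type aldolase Aldoa and the isomerase Tpi1, had changes from -0.12 for Pfkp to 0.20 for Pfkm at 100 nM, none of which passed. Aldoa was tightly bounded at 0.09 (95% interval from -0.06 to 0.25).

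In the lower part of glycolysis, Eno2, the neuron-type enolase, rose. It ran from 8.11 through 8.40 to 8.59 in the controls (8.36 ± 0.17), was 9.18, 9.04 and 8.97 at 10 nM, and ran from 8.88 through 9.32 to 9.46 at 100 nM (9.27 ± 0.21). Every treated array lay above every control. The change was 0.90 ± 0.10 (SE) at 100 nM, or 1.87-fold (limma, adjusted p = 8.01e-05), and 0.70 ± 0.12 at 10 nM, or 1.62-fold (adjusted p = 0.00255). Of the neuron markers measured beside it, 1 of 7 rose at 100 nM (Uchl1, by 0.72) and 0 of 7 changed at 10 nM (0 also at an unadjusted p under 0.05 in limma). The log2 levels of the 7 markers, averaged on each array, had a mean of 7.44 ± 0.23 in the controls and 7.57 ± 0.19 at 100 nM. The part of these markers in the Eno2 result was not tested.

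Pgam1, a phosphoglycerate mutase, had a small rise. It ran from 12.79 through 12.88 to 13.16 in the controls, was 13.16, 13.21 and 13.00 at 10 nM, and ran from 12.96 through 13.16 to 13.23 at 100 nM, so that the groups overlapped. The change at 100 nM was 0.23 ± 0.07 (SE), or 1.18-fold (limma, adjusted p = 0.046). It passed in 3 of 15 fits with 1 array left out (the array left out being control 6, 10 nM replicate 3 or 100 nM replicate 3), with changes from 0.21 to 0.28 and adjusted p up to 0.0992. Gapdh, the dehydrogenase often used as a reference gene, had a change of -0.01 at 100 nM (95% interval from -0.13 to 0.10), and Eno1, the widespread enolase, one of -0.07 (from -0.34 to 0.20). Pgk1, a kinase that yields ATP, had a change of -0.15, Ldha, which turns pyruvate into lactate, one of 0.19, and Pdk1, which restrains the entry of pyruvate into the mitochondrion, one of 0.04. None of these 5 passed the test at either dose.

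**Figure D2:**
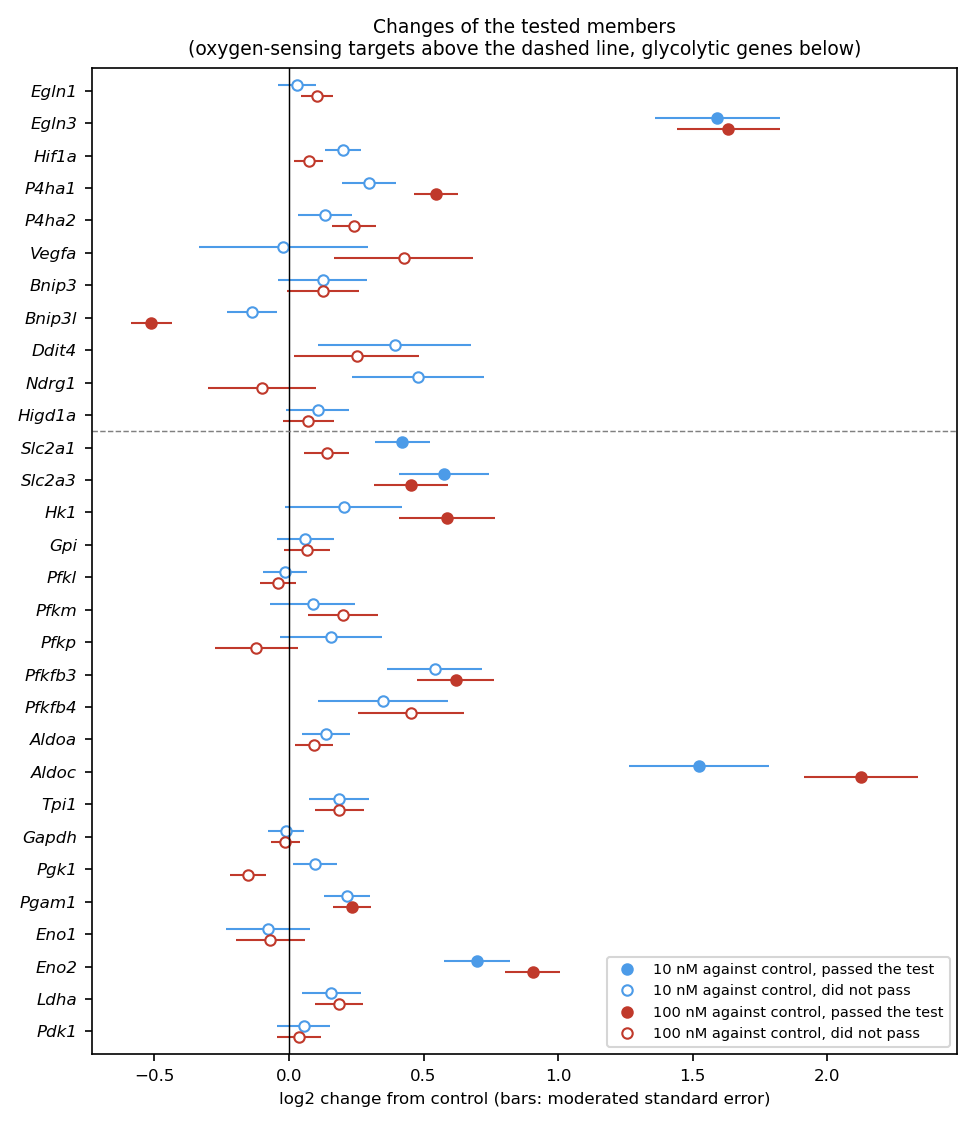
Log2 change from control (horizontal axis, bars are the moderated standard error) of the 30 tested members at 10 nM (blue) and 100 nM (red), with filled points for changes that passed the test and open points for those that did not. Aldoc, Egln3 and Eno2 stand to the right at both doses, while most enzymes of the pathway, such as Gapdh and Aldoa, lie close to 0.

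The arrays of the treated and control groups separated completely for some of the tested members. At 100 nM, 5 of the 30 tested members lay wholly above the controls and 1 wholly below, against 4.51% and 1.36% of all genes tested. At 10 nM, 7 lay wholly above and 0 below, against 10.2% and 4.67%. With 3 arrays instead of 6, a group separates from the controls more easily.

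The response differed within some pairs of related genes. In 7 pairs, the difference of the pair within each array was compared with the controls at each dose, which makes 14 exact two-sided permutation tests, adjusted together; the smallest possible p is 0.00216 at 100 nM and 0.0238 at 10 nM. At 100 nM the change of Aldoc exceeded that of Aldoa by 2.03, that of Eno2 exceeded that of Eno1 by 0.97 and that of Egln3 exceeded that of Egln1 by 1.53, and that of Bnip3l was below that of Bnip3, with a difference of -0.64. Each of these 4 separated fully from the controls (exact permutation p = 0.0022, the smallest possible, adjusted p = 0.00758). P4ha1 exceeded P4ha2 by 0.31 (exact permutation p = 0.0108, adjusted p = 0.0303). Control means were 7.41 for Aldoc and 14.28 for Aldoa, 8.36 for Eno2 and 13.69 for Eno1, and 4.14 for Egln3 and 10.07 for Egln1. They were 12.61 for Bnip3l and 9.24 for Bnip3, and 10.03 for P4ha1 and 8.96 for P4ha2. The part of signal level in these contrasts was not tested. Because at least 1 gene of each pair had been called from these arrays, and the lists were chosen with results known, the tests describe the size of each contrast and are no independent evidence.

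At 10 nM the same 3 enzyme pairs separated fully, with Aldoc over Aldoa by 1.39, Eno2 over Eno1 by 0.78 and Egln3 over Egln1 by 1.56 (exact permutation p = 0.0238, adjusted p = 0.0417 for each). The pair of Bnip3l and Bnip3 differed by -0.26 (exact permutation, adjusted p = 0.133) and P4ha1 and P4ha2 by 0.16 (exact permutation, adjusted p = 0.242). For the transporters, Slc2a3 and Slc2a1 differed by 0.31 at 100 nM (exact permutation, adjusted p = 0.114), and Pfkfb3 and Pfkfb4 by 0.17 (adjusted p = 0.541), neither of which passed.

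**Figure D3:**
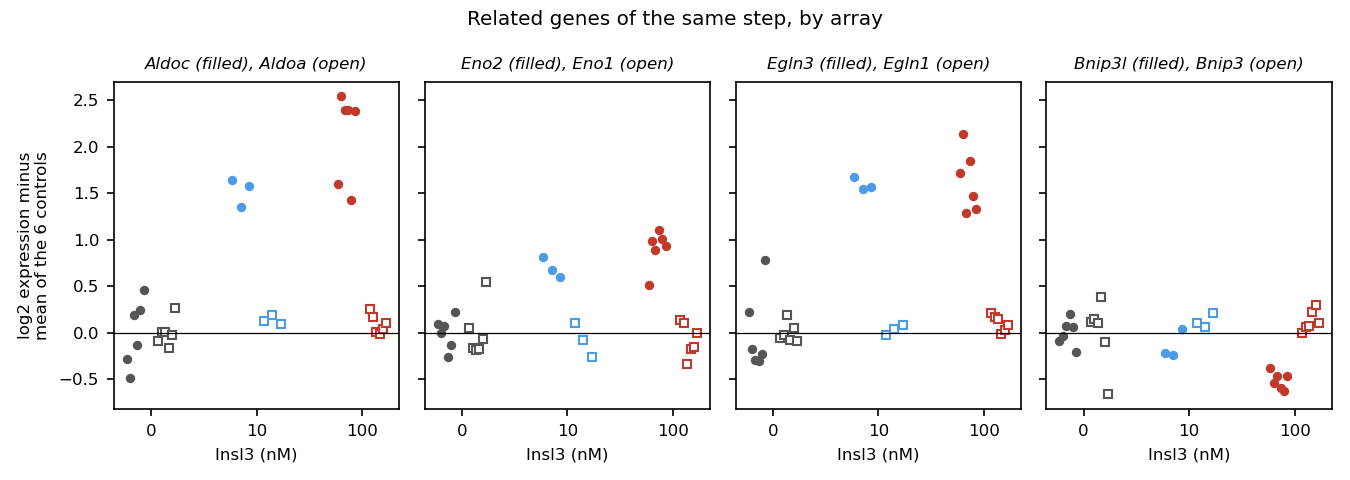
Log2 expression minus the gene's mean in the 6 controls (vertical axis) against Insl3 dose in nM for 4 pairs of related genes; each point is 1 array, filled for the first gene and open for the second. Aldoc, Eno2 and Egln3 move away from 0 while Aldoa, Eno1 and Egln1 stay near it, and Bnip3l moves down at 100 nM.

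Between 100 and 10 nM no member passed the test in limma, where 0.778% of all genes did. At an unadjusted p under 0.05 in limma, 3 of the 11 oxygen-sensing targets and 3 of the 19 glycolytic genes differed. The share of all genes at that unadjusted level was not counted, so these 2 counts cannot be set against a background. The lowest adjusted p was that of Bnip3l, with a difference of -0.37 (95% interval from -0.57 to -0.18, limma adjusted p = 0.0602), followed by Pgk1 at -0.25 (adjusted p = 0.180). Without control replicate 6, Bnip3l passed at the same difference of -0.37 (adjusted p = 0.0462). The 10 nM group had 3 arrays, and a p that misses the threshold does not show that the doses act alike.

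Other genes of the hypoxia response were measured from a list of 40, of which 34 were tested. At 100 nM 6 rose and 3 fell, against 8.15% and 3.98% of all genes tested, with a median change of 0.02. The 3 with the lowest adjusted p among those that rose were Bhlhe40, a transcriptional repressor (2.18, 4.52-fold, limma adjusted p = 0.000185), Plod1, a lysyl hydroxylase of collagen (0.39, adjusted p = 0.00156), and Adm, the vasoactive peptide adrenomedullin (1.20, 2.30-fold, adjusted p = 0.00621). Angptl4, a secreted inhibitor of lipoprotein lipase, fell by 1.43 on the log2 scale (adjusted p = 6.3e-05), and Stc1, a secreted glycoprotein, and Gbe1, a glycogen branching enzyme, fell by 0.32 and 0.22. Leaving out single arrays ended the Stc1 call in 8 of 15 fits (adjusted p up to 0.0686) and the Gbe1 call in 11 (up to 0.0953). The Stc1 call held only when the array left out was control 4, 5 or 6, any at 10 nM or 100 nM replicate 5. The Gbe1 call held only when it was control 1, 10 nM replicate 2 or 100 nM replicate 1 or 5. The Stc1 call was also lost when the tested probe set with the largest variance stood for the gene.

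At 10 nM 5 of the 34 rose and 3 fell, against 5.54% and 3.13% of all genes tested, with a median of 0.08. Ero1a, an oxidase of the endoplasmic reticulum, rose by 0.47 (limma, adjusted p = 0.00211), Bhlhe40 by 1.65 (adjusted p = 0.00534) and Plod1 by 0.37 (adjusted p = 0.00739). These 3 had the lowest adjusted p among the 5 that rose. Adm also rose at 10 nM, and Ero1a also rose at 100 nM. The Plod1 calls at both doses were lost with all 17 arrays. Loxl2, a lysyl oxidase that crosslinks collagen, fell by 1.41 on the log2 scale (adjusted p = 0.000775), Rora, a nuclear receptor, fell by 1.17 (adjusted p = 0.00143), and Angptl4 fell by 1.17 (adjusted p = 0.00144). Between the doses 2 genes of the list passed, Loxl2 and Igfbp3, a carrier of insulin-like growth factors, which were higher at 100 than at 10 nM by 1.08 (adjusted p = 0.0244) and 0.43 (adjusted p = 0.0445). Leaving out 10 nM replicate 1 or 3 or 100 nM replicate 2 or 6 ended the Loxl2 dose call, with adjusted p up to 0.200, and the Igfbp3 call held only without control replicate 1, 2 or 6 or 100 nM replicate 5, with adjusted p up to 0.294.

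Genes that branch from glycolysis or feed into the pentose phosphate route numbered 29, of which 20 were tested. Gpd2, the mitochondrial glycerol phosphate dehydrogenase, rose by 0.90 at 100 nM (limma, adjusted p = 0.014) and by 1.06 at 10 nM (adjusted p = 0.0146), and Pgls, of the pentose phosphate pathway, rose by 0.32 at 100 nM (adjusted p = 0.0157). The 100 nM calls of both were lost with all 17 arrays, with the red blood cell marker covariate and in replicates 1, 2 and 6 alone, and that of Pgls also with the replicate number as a block and in replicates 3, 4 and 5 alone. The 10 nM call of Gpd2 was lost without 10 nM replicate 1 or 2, with an adjusted p of up to 0.0684, and was also lost with all 17 arrays. The list's median was 0.02 at 100 nM and 0.08 at 10 nM. No gene of it fell at either dose, with 0 lower at an unadjusted p under 0.05 in limma. Among all genes tested, 8.15% rose at 100 nM and 5.54% at 10 nM.

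Of 36 genes of mitochondrial oxidation 30 were tested, and their medians were 0.02 at both doses. Cox6c, a subunit of cytochrome c oxidase, rose by 0.18 at 100 nM (limma, adjusted p = 0.0238), and Suclg2, of the citric acid cycle, fell by 0.19 at 10 nM (adjusted p = 0.0479). These were the only calls of the list. Among all genes tested, 8.15% rose at 100 nM and 3.13% fell at 10 nM. The Cox6c call was lost without control replicate 5 or 100 nM replicate 4 (adjusted p up to 0.0542), with the covariate, with the replicate number as a block and within either set of replicates, and the Suclg2 call held only without control replicate 6 or 100 nM replicate 1 or 5 (adjusted p up to 0.150).

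Red blood cell markers moved with the 100 nM group. Of 16 listed, 11 had a probe set of their own and 10 were tested, and 7 of these fell at 100 nM, with a median change of -2.61. Their mean log2 level per array ran from 7.18 to 9.39 in the controls, from 7.01 to 8.44 at 10 nM and from 5.16 to 7.51 at 100 nM. At 10 nM 0 of 10 passed (0 also at an unadjusted p under 0.05 in limma), with a median of -0.47. With this mean as a covariate, the 100 nM changes of Egln3 (1.20, adjusted p = 0.0313), Aldoc (2.58, adjusted p = 0.000643), Eno2 (0.86, adjusted p = 0.0145) and Hk1 (1.21, adjusted p = 0.0039) passed in limma. Those of P4ha1 (0.38, adjusted p = 0.103), Bnip3l (-0.36, adjusted p = 0.0966), Pfkfb3 (0.21, adjusted p = 0.610), Slc2a3 (0.33, adjusted p = 0.466) and Pgam1 (0.06, adjusted p = 0.796) did not. The covariate differs between the groups compared, so dose and marker level are partly shared in that fit.

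**Figure D4:**
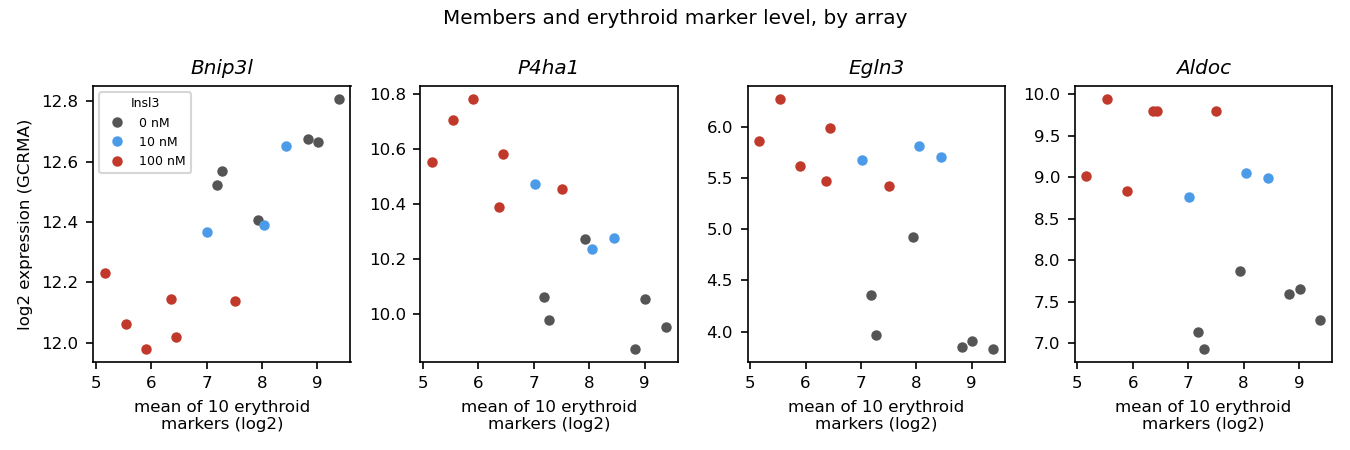
Log2 expression of Bnip3l, P4ha1, Egln3 and Aldoc (vertical axis) against the mean log2 level of 10 red blood cell markers (horizontal axis); each point is 1 array, coloured by Insl3 dose. The marker mean ran from 7.18 to 9.39 in the controls and from 5.16 to 7.51 at 100 nM, so that the groups share only a short stretch of the axis.

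Other marker lists moved less. Leukocyte and macrophage markers had a mean of 9.89 ± 0.37 (SD, n = 6) in the controls, 9.82 ± 0.27 (n = 3) at 10 nM and 8.91 ± 0.43 (n = 6) at 100 nM, and 7 of 13 fell at 100 nM. Endothelial markers had means of 6.96 ± 0.12, 7.27 ± 0.12 and 7.41 ± 0.20, and 3 of 9 (Kdr, Cldn5 and Ramp2) rose at both doses. Skeletal muscle markers had means of 11.60 ± 0.08, 11.54 ± 0.08 and 11.49 ± 0.27, and 2 of 15 fell at 100 nM, while of 11 fibroblast and gubernaculum markers 1 rose and 2 fell there. The part of these lists in the members' changes was not tested.

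Within control and 100 nM replicates 3, 4 and 5 alone, 6 of the 9 members called at 100 nM over all arrays passed the test in limma: Egln3 (1.81), Aldoc (1.97), Eno2 (1.10), P4ha1 (0.65), Pfkfb3 (0.68) and Bnip3l (-0.67). Within replicates 1, 2 and 6 alone none of the members passed, at changes of 1.45 for Egln3 (adjusted p = 0.143), 2.28 for Aldoc (adjusted p = 0.0824), 0.71 for Eno2, 0.45 for P4ha1, 0.56 for Pfkfb3 and -0.35 for Bnip3l. For each of these 6 members every 100 nM array lay beyond every control. The same sign in both sets of arrays was therefore fixed in advance. Over all probe sets, 1691 were called at 100 nM within replicates 3, 4 and 5 and 110 within replicates 1, 2 and 6. Few probe sets of any kind passed within replicates 1, 2 and 6, so the lack of a call there does not set the members apart.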

How the data were processed

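Values are log2 expression per probe set on an Affymetrix rat array, as the authors deposited them; GCRMA is named per the submitters' processing notes, and its version, the base of the logarithm and the genome build are not given in the sources used here. Base 2 was taken from the range of the values, 2.11 to 16.9. GCRMA sets low signals to a shared floor, so a change near it is compressed. Labelled cRNA came from 150 ng of total RNA, per the labels' protocols.

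Probe sets were named through the platform annotation (20832 with 1 gene, 436 with several and 9831 not listed), and only those with 1 gene were used. Of the manufacturer's 57 control probe sets, the 6 for rat Gapdh and Hk1 were kept. A probe set was tested if it exceeded 2.28, the 40th percentile of all values, in at least 3 of 15 arrays. Tests used lmFit and eBayes of limma 3.58.1 (R 4.3.3) on the 3 groups together, two-sided, with Benjamini-Hochberg adjustment over 18942 probe sets and a threshold of 0.05; the procedure was tested on simulated data. The tested probe set with the highest mean stood for each gene. Fold changes are powers of 2 of the log2 change.

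Every member that passed in any comparison was described by array, and from each other pathway list up to 3 genes per direction and comparison with the lowest adjusted p were named. The members, gene lists, marker lists and the division of replicates were chosen with earlier results of these data known. Promoter sequences are from RefSeq, build GRCr8. Alternatives covered the filter, normalization, arrays, spread estimate, covariates, choice of probe set and leaving out each array.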

Additional observations from a re-analysis of the deposited data

Results flagged for a closer look

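Within groups of 6 arrays, 1 array stood apart from the rest (Dixon's test) in 7 of 60 sets of values, where chance gives about 1 in 20. Control replicate 6 was high for Gpi (12.67, next 12.26), Tpi1 (13.16, next 12.81) and Eno1 (14.23, next 13.73). Control replicate 2 was low for Slc2a3 (4.88, next 5.20). At 100 nM, replicate 3 was low for Pgam1 (12.96, next 13.14), replicate 1 was low for Eno2 (8.88, next 9.25) and replicate 6 was high for Pdk1 (8.004, next 7.75).

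The 2 set-aside 10 nM arrays, which no comparison in the main results used, lay above the highest control for 6 of the 9 members that rose at either dose (66.7%). Both arrays did so for 387 of all 1046 tested genes that rose at either dose (37%). They did so for 7 of all 30 tested members (23.3%), against 15.4% of all 10666 genes tested. Genes that rose, members among them, had been chosen against the same controls. The values were 6.31 and 6.90 for Egln3 (highest control 4.92), 10.39 and 10.89 for P4ha1 (10.27), 5.36 and 5.96 for Slc2a3 (5.32), 8.26 and 8.47 for Slc2a1 (7.88), 8.70 and 9.61 for Aldoc (7.87) and 9.51 and 9.65 for Eno2 (8.59). The other members that rose were Hk1, with both arrays (8.22 and 8.004) below the control mean of 8.30, and Pfkfb3 (5.92 and 6.37, highest control 6.20) and Pgam1 (13.18 and 12.77, highest control 13.16), each with 1 array above. On the same arrays the fibroblast and gubernaculum markers had a mean of 12.18, below the lowest control at 12.67, and the red blood cell markers a mean of 9.38. The part of these markers in the values was not tested.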

How the results depend on the processing

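The members' 14 calls gave 382 values under the alternatives, of which 299 kept their direction and their call, 83 kept the direction and lost the call, and 0 reversed; 9 of the 14 were kept whichever of the 15 arrays was left out. The 19 calls of 14 other pathway genes gave 512 values, of which 97 lost the call and 0 reversed. The cause of these losses was not tested.

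For 100 nM against control, the count of oxygen-sensing targets called (3) was 0 in replicates 1, 2 and 6 only, 1 with the red blood cell covariate and 3 to 4 with 1 array left out. The count of glycolytic genes (6) was 3 with no filter, with all 17 arrays, with only the 2 groups in the fit and in replicates 3, 4 and 5 only, 0 in replicates 1, 2 and 6 only, and 3 to 5 with 1 array left out. At 10 nM, the oxygen-sensing count (1) was 2 with all 17 arrays and with the division of replicates as a term, and 1 to 2 with 1 array left out; the glycolytic count (4) was 2 to 5. Between the doses, the oxygen-sensing count (0) was 1 (Bnip3l) with all 17 arrays, with a trended and robust spread and with the division term, and 0 to 1 with 1 array left out; the glycolytic count (0) was 2 with the red blood cell covariate. Over all probe sets, the 2065 calls at 100 nM became 1008 with all 17 arrays, 633 with the covariate and 110 in replicates 1, 2 and 6 only, and with 1 array left out they ranged from 1442 to 2616. The 2004 calls at 10 nM then ranged from 1020 to 2495, and the 271 calls between the doses from 3 to 619.

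Same-numbered arrays of control and 100 nM correlated at 0.01 to 0.20, and of control and 10 nM at -0.04 to 0.13, so the numbers were not taken as pairs. With the replicate number as a block (replicate block), 4 oxygen-sensing targets and 5 glycolytic genes were called at 100 nM, both calls of Slc2a3 were lost (adjusted p = 0.0750 and 0.0714), and Pfkfb3 passed at 10 nM (0.57, adjusted p = 0.015).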
